A study of Homo sapiens with 8 samples.

Results

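The COMMD genes are a family of 10, COMMD1 to COMMD10, and all 10 were measured here in small and large human embryonic stem cells. The members were found by name. They are the probe sets, the sets of short oligonucleotides with which an array measures a transcript, that the platform annotation assigns to a single gene symbol of the family. This gave 19 probe sets for 10 of the 19775 genes that have a probe set of their own. The family was chosen with the result of small against large cells in these arrays known, COMMD1 being among the genes that passed its threshold. The comparison of small with large cells is therefore given for the members as a description and not as a test.

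The cells were of H1, a widely used line of human embryonic stem cells, kept on a layer of irradiated mouse embryonic fibroblasts. A flow cytometer split them by light scatter, which follows cell size and granularity, into a small and a large fraction. Each fraction was collected in 4 sorts that the submitters call independent, and each collection went on its own Affymetrix U133 Plus 2.0 array, giving 4 small and 4 large arrays. Small and large arrays of the same number were not treated as pairs. The labels name no drug, gene change or time course, and both fractions came from this single line. Values are given as log2 intensity after quantile normalization between the arrays, so each is a level relative to the RNA on the array and not an amount per cell. In bulk samples of this kind, fewer cells of a type and less RNA per cell cannot be told apart.

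COMMD proteins share a carboxy-terminal COMM domain, through which they bind one another. In the cell the family assembles into a ring that joins the coiled-coil proteins CCDC22 and CCDC93, and this CCC complex joins the Retriever trimer of VPS35L, VPS26C and VPS29 to form Commander. Commander sits on endosomes with the WASH actin regulator and returns membrane proteins picked up by the adaptor SNX17, such as integrins, to the cell surface. COMMD1, the founding member, is also known for its part in copper export and for limiting NF-kB signalling through cullin ubiquitin ligases.

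Array brightness differed as deposited: the 75th percentile per array ran from 41.9 to 106 units, with no separation of the groups (exact two-sided permutation p = 0.714). The log2 difference between 3 prime and 5 prime control probe sets of GAPDH and ACTB, a sign of RNA quality, was 2.91 on large array 1, between 1.83 and 1.89 on large arrays 2 to 4 and between 1.94 and 2.66 on the small arrays (exact two-sided permutation p = 0.4). The stem cell label was borne out by its markers, of which 12 of 14 could be tested: NANOG lay between 10.58 and 10.81 and SOX2 between 10.23 and 10.56 over all 8 arrays, and DPPA4 and LIN28B between 10.50 and 10.99. The mean level of these 12 markers ran from 10.633 to 10.712 in large and from 10.577 to 10.626 in small cells, slightly lower without overlap, and 0 of the 12 was called. The direction depended on the scaling. In the main fit 2 of the 12 differences lay above 0, with a median of -0.10. With arrays centred on their medians or scaled to their 75th percentile, 10 of 12 did, with a median of 0.08 in each. Of the neural markers, 4 of 6 passed the filter on dim probe sets (PAX6, STMN2, DCX and MAP2). Their mean level ran from 3.78 to 4.71 in large and from 4.75 to 5.13 in small cells, a narrow separation, though 0 of the 4 was called. Part of these values lay near or under the filter level of 3.62. STMN2 averaged 3.36 in large cells, under that level, and passed the filter through the small arrays, where it averaged 4.51. DCX differed by 0.57 and MAP2 by 0.02. PAX6 was at 5.63 on large array 1, between 2.74 and 3.24 on the other large arrays and between 5.13 and 5.87 on the small arrays. The part of these marker genes in the results was not tested. Means of the 9 tested fibroblast, 5 mesoderm and endoderm and 4 trophoblast markers overlapped between the groups. The fibroblast mean was not low, at 6.72 to 7.89 in large and 6.65 to 7.67 in small cells. COL1A1 lay between 8.35 and 10.19 over all 8 arrays, and COL3A1 between 4.91 and 8.55. With 4 arrays in each group, their number limits how precise a value can be.

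Of the 10 COMMD genes, 1 was past the threshold of the fit across all genes (limma, adjusted p under 0.05), COMMD1, and it was higher in small cells. Over all 14726 genes the fit called 1.99%, with 0.299% higher and 1.69% lower. Lower genes made up 85% of the calls, and 70.5% when arrays were scaled to their 75th percentile. COMMD1 was 2.11-fold higher (log2 difference 1.07 ± 0.22 SE, n = 4 per group). COMMD6 had the next difference, 0.64 ± 0.23, and the 8 other members lay between 0.05 and 0.30. All 10 fitted differences were above 0, as were 56% of those of all genes. The median difference of the family was 0.23, beside 0.05 over all genes, and it was 0.20 without COMMD1. A gene is represented in these counts by its probe set with the highest mean, and all 10 genes had at least 1 probe set above the filter on dim signals. Of the 19 probe sets, 14 passed it and 5 did not.

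**Figure D1:**
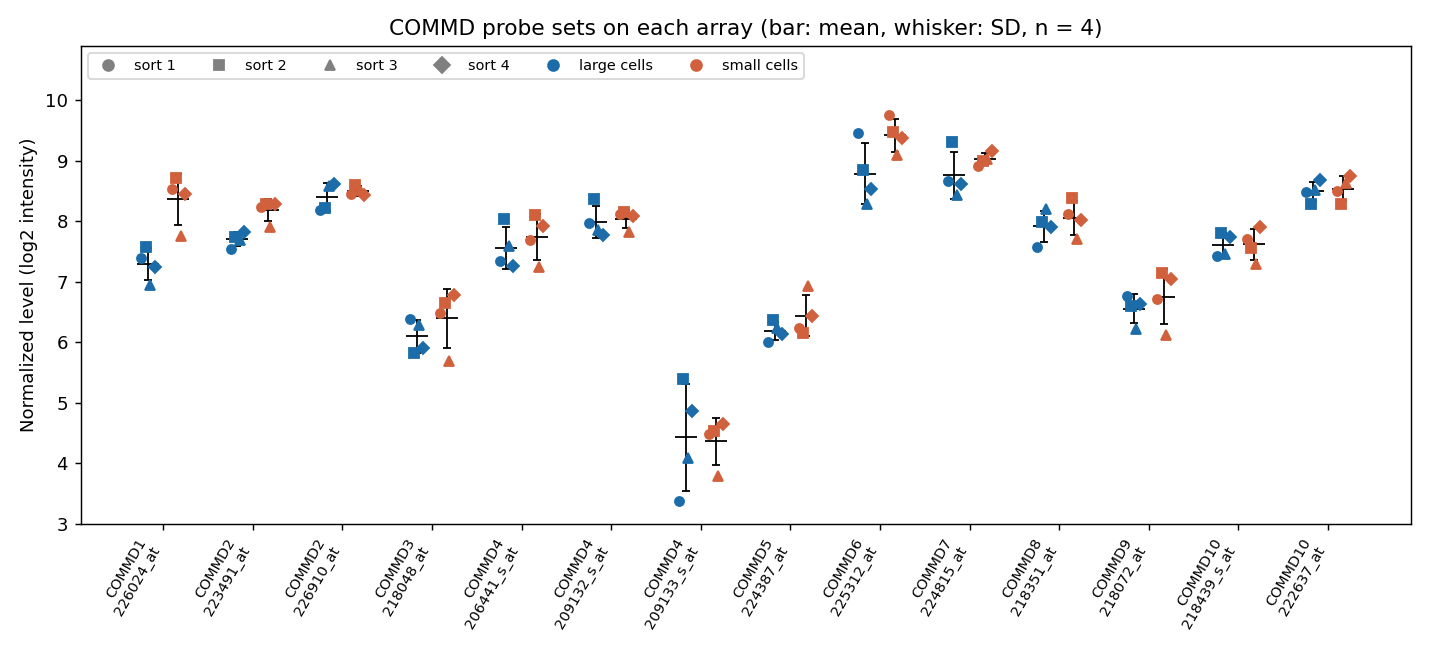
Normalized level (log2 intensity, vertical axis) of the 14 COMMD probe sets that passed the filter, on each of the 4 large and 4 small arrays, with bars at the group means and whiskers of 1 SD. For COMMD1 and for probe set 223491_at of COMMD2 every small array lies above every large array. Levels of different probe sets are not comparable with each other.

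COMMD1, which binds copper and phosphoinositides and is needed for copper export by ATP7B, was read by 1 probe set, 226024_at. Its level was 7.39, 7.57, 6.95 and 7.25 on large arrays 1 to 4 and 8.54, 8.72, 7.76 and 8.45 on small arrays 1 to 4. The lowest small array, array 3, lay above the highest large array, array 2, and large array 3 was the lowest of its group. Small above large without overlap was found for 4.94% of all genes. The same separation stood in the intensities as deposited, before any scaling. They were 103, 166, 206 and 184 units on the large arrays and 353, 296, 376 and 260 units on the small arrays. How many genes separate in the deposited intensities was not computed, and limma called 0 genes on them. A difference of this size or more upward was seen for 0.903% of genes.

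The level of COMMD1 was also set against the rest of the family on the same array, a ratio in which a scale factor common to the array largely cancels. COMMD1 minus the median of the other 9 genes, on the log2 scale of the deposited values, was -0.54, -0.63, -1.28 and -0.67 on large arrays 1 to 4. It was 0.43, 0.44, -0.06 and 0.37 on small arrays 1 to 4. The groups did not overlap, and their means differed by 1.07. How many genes separate in a ratio of this kind was not computed. In both groups the ratio was lowest on array 3, the brightest of its group by 75th percentile (106 units in large, 103.5 in small cells). Whether brightness moved the ratio was not tested. The comparison restates the difference with which the family was chosen, without scaling between arrays.

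**Figure D2:**
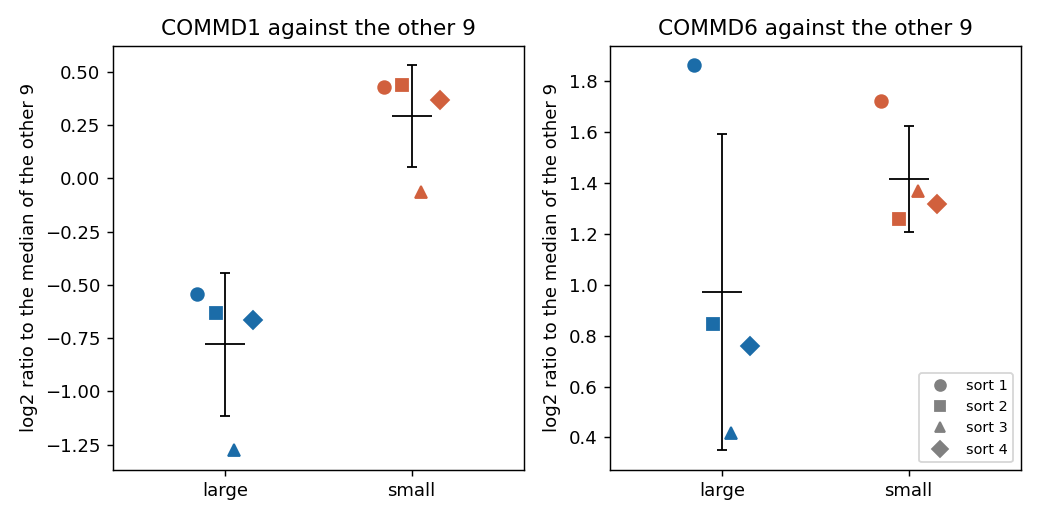
Level of COMMD1 (left) and COMMD6 (right) relative to the median of the other 9 COMMD genes on the same array (log2 ratio, vertical axes with separate ranges), from deposited values without scaling between arrays. Points are arrays, bars are group means and whiskers are 1 SD with 4 arrays per group. COMMD1 runs from -1.28 to -0.54 in large and from -0.06 to 0.44 in small cells, while for COMMD6 large array 1, at 1.86, lies above all small arrays.

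The difference of COMMD1 ran from 0.95 to 1.31 over 25 other settings and kept its sign in all of them. Its place past the threshold was less stable: it was lost without large array 3 or 4 (0.96 and 1.06) and without small array 1, 2 or 4 (1.01, 0.95 and 1.05), and with values left unscaled, centred on array medians or fitted with 1 prior variance for all genes (0.99, 1.14 and 1.07). With the RNA quality measure in the fit it was 1.12 and past the threshold.

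COMMD6, the smallest member and the one that is little more than a COMM domain, sits beside COMMD1 in the ring. Its probe set 225312_at read 9.47, 8.85, 8.29 and 8.54 on large arrays 1 to 4 and 9.75, 9.47, 9.10 and 9.38 on small arrays 1 to 4. Large array 1 lay among the small arrays and the other large arrays below all of them. That array also had the highest 3 prime to 5 prime difference. The log2 difference of 0.64 did not pass the threshold. It was 0.87 and passed without large array 1, was 0.98 and passed without large array 1 and small array 3, and was 0.50 without passing when the RNA quality measure was in the fit. Relative to the median of the other 9 genes, COMMD6 was at 1.86, 0.85, 0.42 and 0.76 on the large and at 1.72, 1.26, 1.37 and 1.32 on the small arrays. A second probe set, 240030_at, was too dim to be tested, with levels between 2.77 and 4.15.

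The bases before the start of COMMD1 and COMMD6, the pair with the largest differences, are shown because the reference used here holds the promoter windows of 9 of the 10 genes (RefSeq, GRCh38.p14), all but COMMD5. Each line holds the 250 bases before the outermost listed start, 5′ to 3′ in the direction of the gene, with CG dinucleotides in capitals. COMMD1 lies on the plus strand (chr2:61888141-61888390) and COMMD6 on the minus strand (chr13:75549440-75549689).
COMMD1: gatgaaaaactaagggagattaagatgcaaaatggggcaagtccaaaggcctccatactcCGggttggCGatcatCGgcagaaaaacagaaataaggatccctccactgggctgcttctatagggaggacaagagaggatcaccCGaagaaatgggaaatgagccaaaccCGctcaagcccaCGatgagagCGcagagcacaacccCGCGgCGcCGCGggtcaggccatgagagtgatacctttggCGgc
COMMD6: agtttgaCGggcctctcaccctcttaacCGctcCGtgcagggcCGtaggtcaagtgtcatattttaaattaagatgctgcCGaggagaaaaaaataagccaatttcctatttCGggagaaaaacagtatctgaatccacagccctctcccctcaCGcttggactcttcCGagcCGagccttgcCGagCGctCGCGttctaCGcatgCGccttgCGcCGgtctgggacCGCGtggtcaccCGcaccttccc
These lines hold 13 and 20 CG dinucleotides. With 50 bases after the start added, the windows of 300 bases held 17 for COMMD1 and 25 for COMMD6. The 7 other members held between 20 and 53. Over 27305 promoters the median was 13 and the upper quartile 28. COMMD3 (53) and COMMD7 (38) lay above that quartile, and COMMD2 and COMMD10 (28 each) were level with it. The remaining members lay under it.

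Common promoter motifs were searched on both strands of these windows. The GC box GGGCGG stood in 5 of 9 (COMMD3, COMMD4, COMMD7, COMMD9 and COMMD10) and in 44.5% of all promoters, and CCAAT in 3 of 9 (COMMD6, COMMD9 and COMMD10) and in 35.7%. The ETS core CCGGAAG was found for COMMD2 and COMMD10 (10.6% of all promoters), the core of the NRF1 motif for COMMD8 (6.29%), and the YY1 core ATGGCGGC (3.18%) and TATAAA (12%) for COMMD10. In COMMD10 the YY1 match shares bases with a CCAAT match. The cyclic AMP element TGACGTCA and the palindromic CGCG element occurred in 0 of 9, against 1.97% and 0.469% of all promoters. RefSeq lists 3 windows for COMMD1, of which the outermost was searched here, and it held none of the 8 motifs.

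On the reference, COMMD1 overlaps CCT4, a chaperonin subunit gene on the opposite strand. CCT4 was at 11.94 to 12.06 in large and 11.75 to 12.05 in small cells, with a difference of -0.13 ± 0.10 (limma adjusted p = 0.542). The next gene beyond COMMD1, B3GNT2, which encodes a glycosyltransferase of polylactosamine synthesis, was lower in small cells by the fit (-0.66 ± 0.14, limma adjusted p = 0.0286). Its level was 8.86, 8.98, 9.14 and 9.19 on the large and 8.45, 8.47, 8.31 and 8.30 on the small arrays, so the neighbour separated the groups in the direction opposite to COMMD1. B3GNT2 stayed past the threshold in 1 of 8 fits with an array left out, that without large array 1 (-0.72). Without large array 2, 3 or 4 it was at -0.68, -0.63 and -0.62, and without small array 1, 2, 3 or 4 at -0.68, -0.68, -0.63 and -0.63. The call was also lost with 75th percentile scaling (-0.57), with the RNA quality measure in the fit (-0.61), without scaling (-0.71), with median centring (-0.56), without a variance trend (-0.66) and for the mean of its probe sets (-1.19). FAM161A, on the other side, was at -0.04 ± 0.23 (limma adjusted p = 0.953).

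COMMD2 and COMMD3 are neighbours in the ring. For COMMD2 the probe sets differed: 223491_at was at 7.55, 7.75, 7.69 and 7.83 on large arrays 1 to 4 and at 8.24, 8.29, 7.91 and 8.29 on small arrays 1 to 4. All 4 small arrays lay above the large ones there, as for 3.89% of probe sets, with a difference of 0.48 ± 0.16 that did not pass the threshold over all probe sets, of which 0.198% passed as higher. The brighter 226910_at ran from 8.20 to 8.61 in large and from 8.44 to 8.60 in small cells, a difference of 0.10 ± 0.15, and the groups overlapped. COMMD3, which with COMMD8 brings a kinase to chemokine receptors, was at 6.38, 5.82, 6.28 and 5.91 on the large and 6.48, 6.64, 5.69 and 6.78 on the small arrays. Its lowest value of all, on small array 3, lay below every large array, and the difference was 0.30 ± 0.25. BMI1, the gene that follows COMMD3 and shares read-through transcripts with it, had no probe set annotated to it alone among those tested.

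COMMD4 and COMMD8 pair in the ring, and neither separated the fractions. The 3 probe sets of COMMD4 gave differences of 0.05 ± 0.17, 0.18 ± 0.22 and -0.06 ± 0.43, the last on the dimmest, 209133_s_at, whose large arrays spanned 3.37 to 5.39. All 3 end in _s_at, a mark for probe sets that can bind more than 1 transcript. COMMD8 ran from 7.58 to 8.20 in large and from 7.71 to 8.39 in small cells, a difference of 0.15 ± 0.19.

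COMMD5 and COMMD10 form another pair. COMMD5, first described as a gene that responds to calcium in hypertensive animals, ran from 6.01 to 6.37 in large and from 6.16 to 6.92 in small cells, with small array 3 the highest and a difference of 0.25 ± 0.21. Its probe set 232640_at was too dim to be tested. Another 2 probe sets that read COMMD5 together with other genes were not used. COMMD10 had differences of 0.05 ± 0.15 on 222637_at and 0.01 ± 0.18 on 218439_s_at, and its groups overlapped on both. The gene had a further 2 probe sets, 235481_at and 242980_at, at or under 3.63 on all arrays and too dim to be tested.

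COMMD7, which limits NF-kB signalling, and COMMD9, which takes part in recycling of NOTCH2, also pair. COMMD7 was at 8.67, 9.32, 8.44 and 8.62 on large arrays 1 to 4 and at 8.92, 8.997, 9.02 and 9.16 on small arrays 1 to 4. Large array 2 lay above all small arrays and the other large arrays below all of them, with a difference of 0.26 ± 0.18. A further probe set, 244178_at, was too dim to be tested. COMMD9 ran from 6.22 to 6.76 in large and from 6.12 to 7.14 in small cells, a difference of 0.20 ± 0.23.

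Small array 3 gave the lowest value of its group for 6 of the 10 genes and small array 2 the highest for 5. Among the large arrays, array 3 was lowest for 4 genes and array 2 highest for 4. The spread between sorts of a fraction ran from an SD of 0.08 (COMMD2, small) to 0.51 (COMMD6, large). With the median of the 9 members other than COMMD1 taken after centring each gene, the large arrays were at -0.05, -0.05, -0.08 and -0.18 and the small arrays at 0.06, 0.15, -0.01 and 0.23. The groups did not overlap, and small array 3 lay nearest to the large arrays. Each of these 9 genes by itself overlapped between the groups on the probe set that represented it. How often the median of other sets of 9 genes separates the groups was not computed. Without scaling between arrays, where the median of all genes was -0.05, the family median was 0.09 and 8 of 10 differences were above 0.

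**Figure D3:**
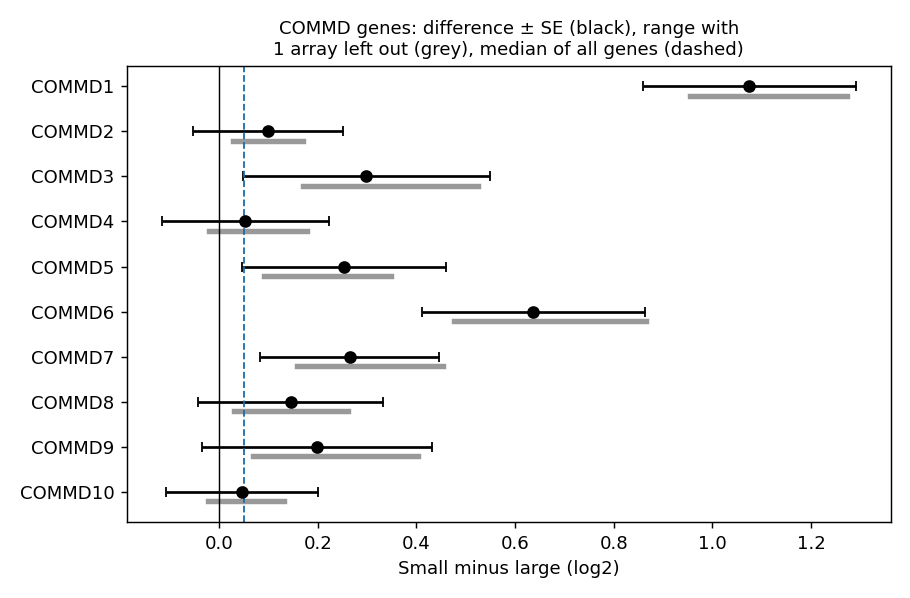
Fitted difference of small minus large cells (log2, horizontal axis) for the 10 COMMD genes, with black whiskers of 1 SE (4 arrays per group), grey bars for the range when 1 of the 8 arrays is left out, and a dashed line at 0.05, the median of all genes. COMMD1 at 1.07 stands apart, COMMD6 is at 0.64 and the other 8 lie between 0.05 and 0.30, and the grey bars of COMMD4 and COMMD10 cross 0.

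Genes of the pathway outside the family were then examined in lists, which were drawn up with earlier results of these arrays known and are no independent evidence of a direction. Of the Commander subunits outside the family, 5 of 6 could be tested (DENND10 could not), and limma called 0 of 5, with 0 of 5 at an unadjusted p under 0.05. Their median difference was 0.03. Over all 14726 genes, 2431 were at an unadjusted p under 0.05 by limma in the same fit. CCDC22 was at -0.29 ± 0.26 and CCDC93, the other coiled-coil subunit, at 0.03 ± 0.17. Of the Retriever subunits, VPS35L was at -0.15 ± 0.16, VPS26C at 0.22 ± 0.23 and VPS29 at 0.11 ± 0.19. The median of the 9 other COMMD genes minus that of these 5 partners on the same array ran from 0.65 to 1.34 in large and from 0.14 to 1.15 in small cells, and the groups overlapped.

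SNX17, the adaptor, and the WASH complex gave 0 called genes of 8 by limma, with 2 at an unadjusted p under 0.05 and a median of 0.12. WASHC3 was at 0.73 ± 0.25 (adjusted p = 0.161) and WASHC2C at 0.57 ± 0.22 (adjusted p = 0.204). SNX17 itself had a difference of -0.15 ± 0.22. Retromer, the related sorting complex that works apart from Commander, gave 0 of 11 by limma, with 1 at an unadjusted p under 0.05 and a median of 0.07. VPS35, its core subunit, was at 0.32 ± 0.14 (adjusted p = 0.275) and SNX2 at 0.37 ± 0.22 (adjusted p = 0.435). The other probe sets of VPS35 were at 0.55 ± 0.15, 0.15 ± 0.15 and 0.55 ± 0.43, and that of SNX2 at 0.60 ± 0.20. Only on the first of these did all small arrays lie above all large arrays, as for 3.89% of probe sets. With the mean of each gene's probe sets, limma called 0 of the 11 Retromer genes. In that fit 3 of them were at an unadjusted p under 0.05, beside 2197 of all 14726 genes.

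The cargo list holds genes whose proteins Commander or COMMD1 are known to handle. Of its 13 genes 11 were tested, and 3 were lower in small cells and 0 higher, beside 1.69% of all genes lower. The median difference was -0.64, and 10 of 11 lay below 0. SCNN1A, a subunit of the epithelial sodium channel, was at 9.61, 9.72, 9.69 and 9.78 on the large and at 8.91, 8.25, 8.77 and 9.24 on the small arrays, 1.87-fold lower (-0.91 ± 0.18, limma adjusted p = 0.0245). The integrin chain ITGB1, an SNX17 cargo, was at 10.57, 11.11, 11.37 and 11.29 on the large and at 10.06, 10.10, 10.49 and 10.49 on the small arrays (-0.80 ± 0.17, limma adjusted p = 0.0332). Its partner chain ITGA6 was at 9.27, 9.005, 9.33 and 9.36 against 8.25, 8.55, 8.64 and 8.53 (-0.75 ± 0.15, limma adjusted p = 0.0230). For these 3 genes no small array reached a large one, as for 5.07% of all genes. The other probe sets of ITGB1 were at -1.31 and -0.73 and that of ITGA6 at -1.07. Large array 1 was the lowest large array for ITGB1, whose call was lost with the RNA quality measure in the fit (-0.71, limma adjusted p = 0.0723) and without the filter on dim probe sets (limma adjusted p = 0.0528).

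Not called, though with a larger difference, was LRP1, a lipoprotein receptor, at -1.46 ± 0.43 (limma adjusted p = 0.107), and NOTCH2 was at -0.80 ± 0.24. The copper pumps ATP7A and ATP7B were at -0.45 ± 0.40 and 0.04 ± 0.24. With 1 array left out, all 3 calls were lost without large array 3 or 4 or small array 1 or 2. SCNN1A then lay at -0.92, -0.89, -0.94 and -0.72, ITGB1 at -0.71, -0.74, -0.72 and -0.73, and ITGA6 at -0.72, -0.71, -0.66 and -0.76, with 6, 5, 5 and 6 of the 11 genes at an unadjusted p under 0.05. Over all genes 1930, 1942, 1952 and 1991 were at such a p in the same fits, of between 14705 and 14742 tested. Without large array 2 the calls of SCNN1A (-0.90) and ITGB1 (-0.78) were lost. With scaling to the 75th percentile 0 of the 3 passed, at -0.79, -0.60 and -0.65, with 5 of 11 genes of the list at an unadjusted p under 0.05. With that scaling 2576 of all 14715 genes were at such a p. Leaving out small array 4 raised the count of cargo calls from 3 to 5.

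Copper handling genes gave 0 of 14 called by limma, with 1 at an unadjusted p under 0.05 and a median of 0.17. The copper importer SLC31A1 was at -0.43 ± 0.19 (adjusted p = 0.286), while its other 2 probe sets were at -0.05 ± 0.25 and -0.05 ± 0.34 and the mean of its probe sets gave -0.18. MT1E, a metallothionein that binds copper and zinc, was at 0.64 ± 0.31 (adjusted p = 0.329), on a probe set ending in _x_at that can also bind its close relatives. NF-kB factors and cullin ligases gave 0 of 23 by limma, with 5 at an unadjusted p under 0.05 and a median of -0.03. NFKBIA, the NF-kB inhibitor that NF-kB itself induces, was at 7.77, 6.54, 6.71 and 6.86 on the large and 7.70, 8.04, 7.94 and 7.63 on the small arrays. Its difference was 0.86 ± 0.24 (adjusted p = 0.092), and large array 1 again lay among the small arrays. Without that array it was 1.13 and passed. ELOB, an elongin that links cullins to substrate receptors, was at 0.77 ± 0.22 (adjusted p = 0.102) and at 0.99 without large array 1, where it passed. RELA, the NF-kB subunit that COMMD1 binds, was at -0.03 ± 0.17.

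**Figure D4:**
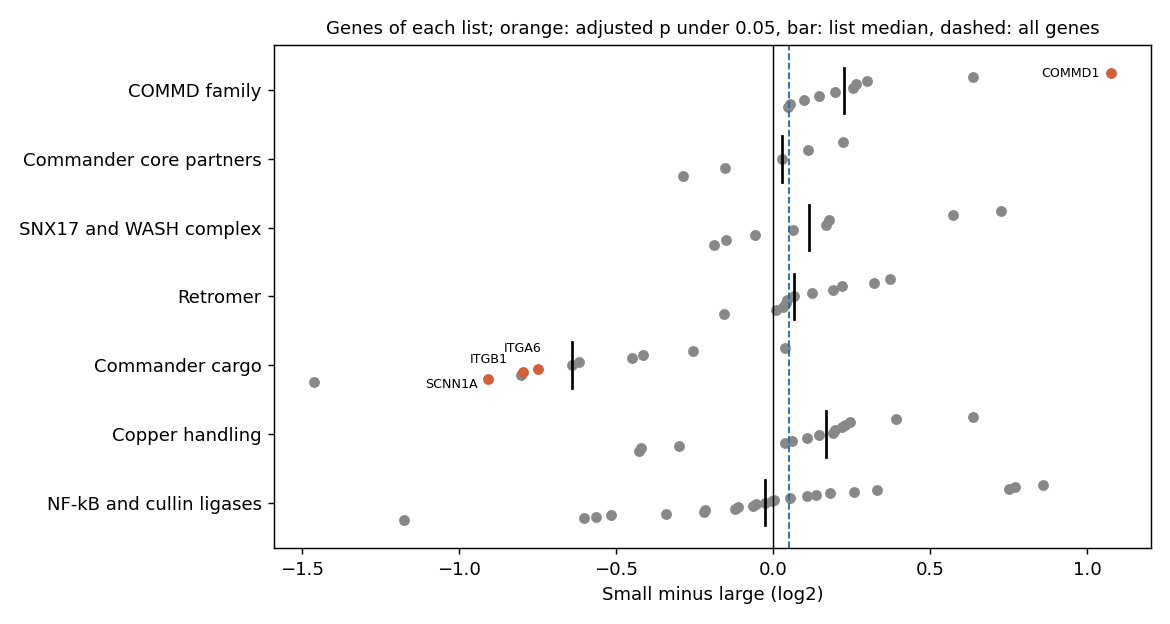
Fitted difference of small minus large cells (log2, horizontal axis) for every tested gene of the COMMD family and of the 6 partner lists, 1 point per gene, with list medians as black bars and the median of all genes, 0.05, dashed. Orange points passed an adjusted p of 0.05: COMMD1 above 0, and SCNN1A, ITGB1 and ITGA6 of the cargo list below 0.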

How the data were processed

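The values deposited by the authors are linear intensities, 1 for each probe set on each array. Per the labels' protocols and design text, Affymetrix scanner software was followed by Rosetta Resolver 7.1. The step that wrote the intensities and its background correction are not stated in the labels or the file. The table has 54675 probe sets, 62 of them controls that were left out. Intensities were raised by 1.81 (their 10th percentile), taken to log2, which understates changes of dim genes, and quantile normalized, since the log2 75th percentiles spanned 1.33. Probe sets with a mean above 3.62 (the 40th percentile) were tested, 32768 in all.

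GEO's platform annotation gave 41091 probe sets 1 symbol, 1801 several (these named no gene) and 11721 none; 41037 were matched by gene ID to RefSeq to update symbols. Each of 14726 genes was represented by its brightest tested probe set. Groups came from the sample titles. The 4 small and 4 large arrays were set against each other by limma 3.58.1 under R 4.3.3 (eBayes with a variance trend), two-sided, with Benjamini-Hochberg adjustment over all genes (or all probe sets) and a threshold of 0.05. Errors beside differences are moderated standard errors. The fit was tested on simulated data with independent noise for each gene and array. These held no effect shared by an array or a sort, so the simulation cannot speak to such effects.

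The members and the lists were chosen with earlier results of these data known. Named were all members, up to 4 called genes of each partner list or else the 2 of smallest p, 4 stem cell markers, the genes adjoining COMMD1 and COMMD3 and the 3 genes nearest to COMMD1 in pattern. The other core partners, the neural and fibroblast markers, RELA, SNX17, LRP1, NOTCH2, ATP7A and ATP7B lie outside that rule. They were named after their values were seen. Alternatives were other scalings, pseudocounts, filters, fits and probe set rules, a replicate block, and arrays left out.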

Additional observations from a re-analysis of the deposited data

Results flagged for a closer look

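A lone value was looked for in the tested COMMD probe sets, the partner genes named by rule and 4 stem cell markers, in each fraction. Among these 62 groups of 4 arrays 1 was marked, where chance marks about 5%. On probe set 223491_at of COMMD2, small array 3 was at 7.91, below the 8.24 to 8.29 of the other small arrays, a gap that took 0.857 of the group's range. The value still lay above all 4 large arrays.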

How the results depend on the processing

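COMMD1 kept its direction under all 25 alternatives and its side of the threshold under 17. Without scaling between arrays, with median centring or without a variance trend, limma called 0 genes (494, 1575 and 2234 at an unadjusted p under 0.05), 0 COMMD genes (0, 2 and 2) and 0 partner genes (2, 10 and 13). With 75th percentile scaling 0 partner genes were called (16 unadjusted). The replicate block called 753 genes, 2 of them COMMD genes, and 7 partner genes. Array weights gave 824, 2 and 7, and leaving out large array 1 with small array 3 gave 776, 2 and 8. The second COMMD gene was COMMD6. Genes called numbered 190 without _x_at and _s_at probe sets, 155 with the RNA quality covariate and 593 at an adjusted p threshold of 0.1. Leaving out 1 array gave 62 to 553 genes, 0 to 2 COMMD genes and 0 to 6 partner genes. The causes were not tested.

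The family median was 0.0892 unscaled and 0.16 to 0.26 with 1 array left out. Relative to the median of all genes it was 0.17, between 0.11 and 0.22 over the alternatives. COMMD4 turned to -0.0403 and COMMD10 to -0.0367 unscaled, and COMMD10 to -0.000393 with array weights. With 1 array left out COMMD4 ran from -0.0211 to 0.18 and COMMD10 from -0.0229 to 0.13. Same-numbered sorts deviated together with correlations of 0.114, 0.126, 0.234 and 0.0138, and 3 of 4 small sorts correlated best with their own number, a hint of pairing from the data. The numbers were not taken as pairs, since the last correlation was near 0. That correlation does not exclude a link between the arrays numbered 4. The fibroblast marker COL3A1 was the lowest of its group on large array 4 (5.10) and on small array 4 (4.91). So were DCN (3.79 and 4.07) and LUM (5.76 and 5.62). COL1A1 was lowest on large array 4 (9.21) but highest on small array 4 (9.58). TAGLN and FBN1 were lowest on array 1 of each group, and COL1A2 and THY1 on array 3 of each. POSTN was lowest on large array 1 and small array 4. Whether these markers reflect pairing was not tested. With the replicate block COMMD6 and ELOB passed the threshold and cargo calls went from 3 to 6.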

Other observations

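The genes outside the family whose pattern over the 8 arrays came nearest to that of COMMD1 were GADD45GIP1, which encodes a mitochondrial ribosome protein, AP4S1, the small subunit of the AP-4 adaptor, and NDUFB7, a subunit of respiratory complex I. The root mean square distance of their centred log2 values to those of COMMD1 was 0.13, 0.20 and 0.21, out of 14716 genes compared. Within the family COMMD6 was nearest at 0.36 and COMMD10 farthest at 0.66. GADD45GIP1 was at 6.37, 6.39, 5.89 and 6.02 on large arrays 1 to 4 and at 7.44, 7.28, 6.54 and 7.11 on small arrays 1 to 4, with small array 3 and large array 3 the lowest of their groups, as for COMMD1. Its difference of 0.93 was 0.22 when the mean of its probe sets was taken. By that measure the difference of AP4S1 went from 0.87 to 0.33, while that of NDUFB7 stayed at 0.84. These genes were picked for their likeness in the same arrays.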
